A study of Rattus norvegicus with 26 samples.

Results

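Fatty acid synthesis genes were followed in cultured rat hepatocytes exposed to 2 dioxin-like chemicals. The 5 genes of the set were Fasn, Acly, Acaca, Me1 and Thrsp. Members were all probe sets (groups of short oligonucleotides that read 1 transcript) that the array's probe-to-gene table assigns to 1 of these genes and to no other gene. They were 11 of the 8799 probe sets on the array, for 4 of the 4737 genes that the table names in this way. Fasn had 2 of them, Acly 3, Acaca 1 and Me1 5. No probe set was listed for Thrsp, so Thrsp was not analysed here. Of the 11, 9 passed the filter on dim probe sets and were tested, for 3 genes (Fasn, Acly and Me1).

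The data were 26 arrays of RNA from cultured primary hepatocytes of female Sprague Dawley rats of the outbred stock Crl:CD(SD)IGS BR, after 48 hours of treatment. TCDD (a chlorinated dibenzo-p-dioxin) doses common to the pools were 0.01 and 1 pM together with 0.1, 10 and 316 nM, and pool 2 alone also had 10 pM and 1 nM. PCB 126 (a coplanar chlorinated biphenyl) doses common to the pools were 1 pM together with 0.1, 10, 1000 and 10000 nM, and pool 2 alone again had 10 pM and 1 nM. All cultures, treated and vehicle, had 0.5% DMSO. Vehicle cultures gave 1 array per pool, and each dose gave 1 array in each pool that had it. Each pool mixed the cells of 3 animals, so the 2 pools are the only biological units, no group had over 2 arrays, and p values measure the spread between arrays. The ages of the rats were not given in the sources used here. The main comparison was that of the top doses, TCDD 316 nM and PCB 126 10000 nM, which are not the same concentration.

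Fatty acid synthesis turns sugar carbon into palmitate in the cytosol. Citrate leaves the mitochondrion and is cleaved to acetyl-CoA by Acly, Acaca carboxylates acetyl-CoA to malonyl-CoA, and Fasn builds the chain from these with NADPH, part of which comes from the malic enzyme Me1. Thrsp (Spot 14) is a small nuclear and cytosolic protein that is induced with these enzymes in rat liver. The enzymes are induced by insulin and carbohydrate through the transcription factors SREBP-1c and ChREBP, while both chemicals are ligands of the dioxin receptor AhR, which switches on transcription of drug-metabolising enzymes in the liver.

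The sequences just upstream of Acly and Me1 are shown because the genes were read out under AhR ligands, whose receptor recognises a short core motif. The RefSeq promoter table (assembly GRCr8, 250 bases before the start used) listed 3 of the 5 genes, namely Acly, Me1 and Thrsp. Capitals mark matches on either strand to the AhR core GCGTG, the antioxidant response element core TGACNNNGC, the E box CACGTG and the inverted CCAAT box ATTGG. The first sequence lies at chr10:85963632-85963881 and the second at chr8:96540245-96540494, both on the minus strand and written 5′ to 3′ in the direction of the gene.
Acly: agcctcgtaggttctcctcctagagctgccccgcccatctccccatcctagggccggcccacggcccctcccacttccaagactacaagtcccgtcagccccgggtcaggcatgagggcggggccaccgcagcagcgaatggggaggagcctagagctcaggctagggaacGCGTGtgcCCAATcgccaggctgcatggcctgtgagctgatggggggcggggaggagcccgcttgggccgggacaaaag
Me1: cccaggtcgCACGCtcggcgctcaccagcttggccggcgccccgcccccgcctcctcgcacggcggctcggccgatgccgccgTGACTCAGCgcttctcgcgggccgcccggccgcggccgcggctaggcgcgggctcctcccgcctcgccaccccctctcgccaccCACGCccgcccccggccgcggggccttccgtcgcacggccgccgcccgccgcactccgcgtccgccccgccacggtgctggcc
The Acly window held 1 GCGTG, 79 bases before the start, and 1 CCAAT 71 bases before it. The Me1 window held 2 matches to GCGTG, both on the other strand as CACGC, at 241 and 83 bases, and 1 TGACNNNGC at 167 bases. GC boxes, GGGCGG on either strand, numbered 3 for Acly and 5 for Me1 and are not capitalised, and the matches named here did not overlap. Over 33469 rat promoters of the same length, 25.9% held GCGTG, 10.1% TGACNNNGC, 5.59% CACGTG, 34.0% ATTGG and 30.5% GGGCGG. A match here describes letters and not a site of binding.

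The arrays carried hepatocyte RNA and responded to both ligands. All 7 hepatocyte markers with a probe set averaged above the filter level, with albumin (Alb) at a mean log2 value of 14.2. Cyp1a1, the classical AhR target, had 12.77 and 11.69 at 316 nM TCDD and 12.43 and 12.05 at 10000 nM PCB 126, against 3.45 and 3.28 with vehicle. The array labelled PCB 126 1 pM of pool 2 went against its neighbours, with a Cyp1a1 value of 10.80 against 3.21 in pool 1 at that dose and 7.91 at 10 pM in pool 2. A further 3 arrays stood apart. For TCDD 0.1 nM of pool 1 and PCB 126 10000 nM of pool 2 the measure was spread. The interquartile range of their log2 values relative to the pool's median array was 0.675 and 0.539. Arrays that did not stand apart had 0.10 to 0.38. These 2 arrays had the lowest β-actin 3′ minus 5′ signal of their pools, 0.64 and 1.24 log2. TCDD 10 pM of pool 2 stood apart by a β-actin 3′ minus 5′ signal of 2.19 log2. Whether the wide spread came from array quality or from the treatment was not tested.

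Levels of the members differed between the pools before any treatment was considered. Values are log2 of array signal, as deposited, and levels of different probe sets are not compared. The Acly probe set J05210_g_at ran from 7.45 to 9.63 (median 8.89) over the 15 arrays of pool 2 and from 5.53 to 8.61 (median 7.61) over the 11 arrays of pool 1. Pool 2 had the higher median, with an overlap of the ranges. Me1 rc_AI171506_g_at ran from 8.13 to 9.07 (median 8.82) in pool 2 and from 7.22 to 8.42 (median 8.19) in pool 1. Me1 rc_AI008020_at lay at 6.74 to 7.49 in pool 2 and 5.02 to 6.57 in pool 1, and was the 1 of 9 tested members whose pools did not overlap with pool 2 above, against 5.79% of the 5197 probe sets tested. In 0 of 9 did pool 2 lie wholly below (5.46% of all). Fasn went both ways, M76767_s_at with a median of 5.60 in pool 2 and 5.34 in pool 1, and X13527cds_s_at with 4.67 in pool 2 and 5.07 in pool 1. Pool and array quality cannot be told apart here: the β-actin 3′ minus 5′ signal averaged 1.51 ± 0.22 log2 (SD, n = 15) in pool 2 and 0.82 ± 0.12 log2 (SD, n = 11) in pool 1. The pool was therefore a term in every fit.

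**Figure D1:**
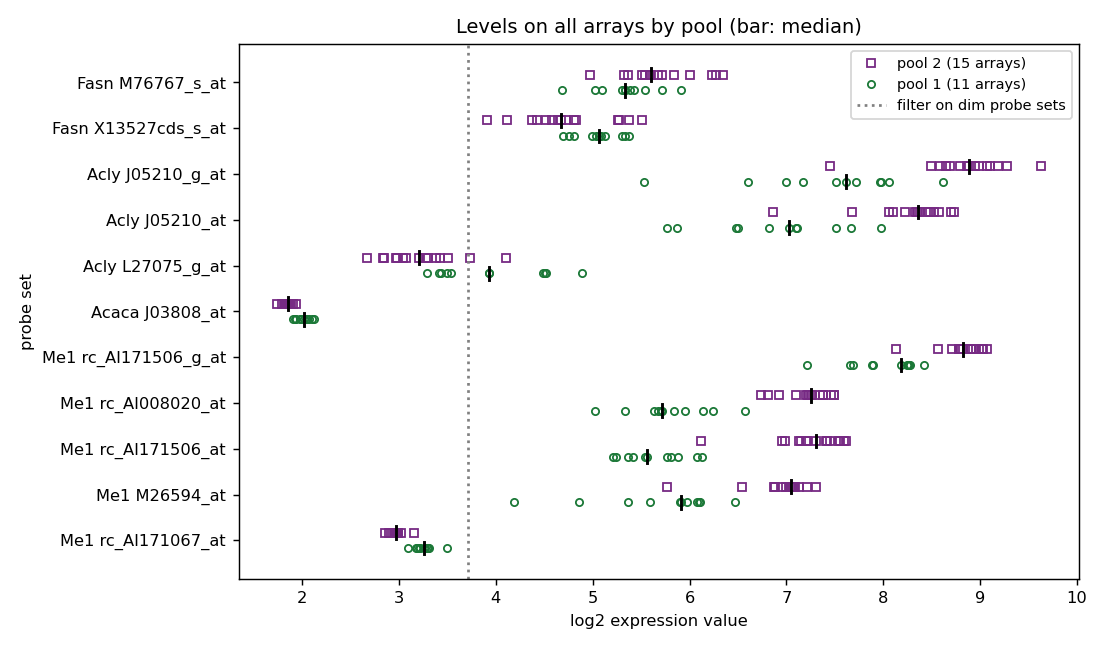
Log2 expression value (x axis) of each of the 11 member probe sets (rows) on every array, pool 2 as squares above pool 1 as circles, with a bar at each pool's median and a dotted line at the filter level of 3.71. Acaca J03808_at and Me1 rc_AI171067_at lie wholly left of the line, and the pools of Me1 rc_AI008020_at do not overlap.

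Acaca, the committed step of the pathway, could not be followed on this array. Its single probe set J03808_at stayed between 1.74 and 1.94 in pool 2 and between 1.90 and 2.13 in pool 1, far below the filter level of 3.71 on all 26 arrays. It read 1.94 and 1.85 with 316 nM TCDD and 1.93 and 1.94 with 10000 nM PCB 126, against 2.05 and 1.87 with vehicle. The Me1 probe set rc_AI171067_at ran from 2.85 to 3.50 and was left out for the same reason. The dimmest tested member, Acly L27075_g_at, passed with a second-highest value of 4.51, and the brighter of those left out, rc_AI171067_at, had 3.31. Neither probe set was tested.

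Fasn, the multi-domain synthase that assembles palmitate, fell with PCB 126 dose on 1 of its 2 probe sets. On M76767_s_at in pool 1 the value was 5.91 with vehicle and 5.71, 5.34, 5.34, 4.68 and 5.02 at PCB 126 1 pM, 0.1 nM, 10 nM, 1000 nM and 10000 nM. In pool 2 it was 6.01 with vehicle and 5.67, 5.84, 5.54, 5.59, 5.50, 5.32 and 4.97 at 1 pM, 10 pM, 0.1 nM, 1 nM, 10 nM, 1000 nM and 10000 nM. All 12 PCB 126 arrays lay below the vehicle array of their pool, and the 2 highest doses held the 2 lowest values in each pool. These 12 comparisons reuse 2 vehicle arrays, and the share of all probe sets with this pattern was not counted. In pool 1 the vehicle array was the highest of the pool, so every TCDD array there lay below it too. In pool 2 some TCDD arrays lay above vehicle. The fitted slope, from a model of all 26 arrays with the pool as a term and no dose assigned to vehicle, was -0.10 ± 0.03 log2 per decade of dose (SE; a decade is a 10-fold step), with a limma adjusted p of 0.0408. Fewer cells of a type and less RNA per cell cannot be told apart in such RNA. In this trend 221 of 5197 probe sets (4.25%) were called, 81 up and 140 down, and 2.69% were called lower; with each array centred on its median it was 50 up and 163 down. Of the 9 members 1 was called, and 4 had an unadjusted p below 0.05, against 16.9% of all probe sets. The call was lost without the 10000 nM array of pool 2, which stood apart (-0.09, adjusted p = 0.178), and without all 3 arrays that stood apart, an alternative chosen after seeing the data (-0.09, adjusted p = 0.0986). It held without the array labelled PCB 126 1 pM of pool 2 (-0.12, adjusted p = 0.0407) and was lost without that of pool 1 (-0.09, adjusted p = 0.197).

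The other Fasn probe set did not pass the test. X13527cds_s_at had a PCB 126 slope of -0.02 ± 0.04 log2 per decade (adjusted p = 0.793). In pool 1 its value was 5.08 with vehicle and 4.99, 4.75, 5.03, 5.13 and 5.07 over the 5 PCB 126 doses, low to high. In pool 2 it was 4.37 with vehicle and 4.67, 4.82, 4.64, 4.72, 4.52, 4.58 and 4.12 over the 7 doses. Here only the top dose of pool 2 lay below its vehicle array, while in pool 1 vehicle lay inside the range of the doses. The mean of both probe sets gave a slope of -0.06 (adjusted p = 0.321). Both names end in _s_at, which marks probe sets that can match more than 1 transcript.

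With TCDD no member of the set was called. Fasn M76767_s_at was 5.91 with vehicle in pool 1 and 5.54, 5.31, 5.09, 5.38 and 5.42 at 0.01 pM, 1 pM, 0.1 nM, 10 nM and 316 nM. In pool 2 it was 6.01 with vehicle and 6.34, 6.23, 5.59, 5.72, 6.27, 5.60 and 5.36 over the 7 doses, low to high. Every TCDD array of pool 1 lay below vehicle, and in pool 2 arrays lay on both sides of it. The TCDD slope was -0.06 ± 0.03 log2 per decade (unadjusted p = 0.0446, limma adjusted p = 0.326). For this trend 161 of 5197 probe sets (3.1%) were called, 85 up and 76 down (69 up and 34 down with centred arrays), and 0 of the 9 members, of which 2 had an unadjusted p below 0.05 (14.5% of all probe sets). The other of these 2 was Me1 M26594_at, with 0.11 ± 0.05 per decade (adjusted p = 0.311). Its lowest value in pool 1, 4.19, was at the lowest TCDD dose, and over fits without 1 array its slope ran from 0.04 to 0.17.

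**Figure D2:**
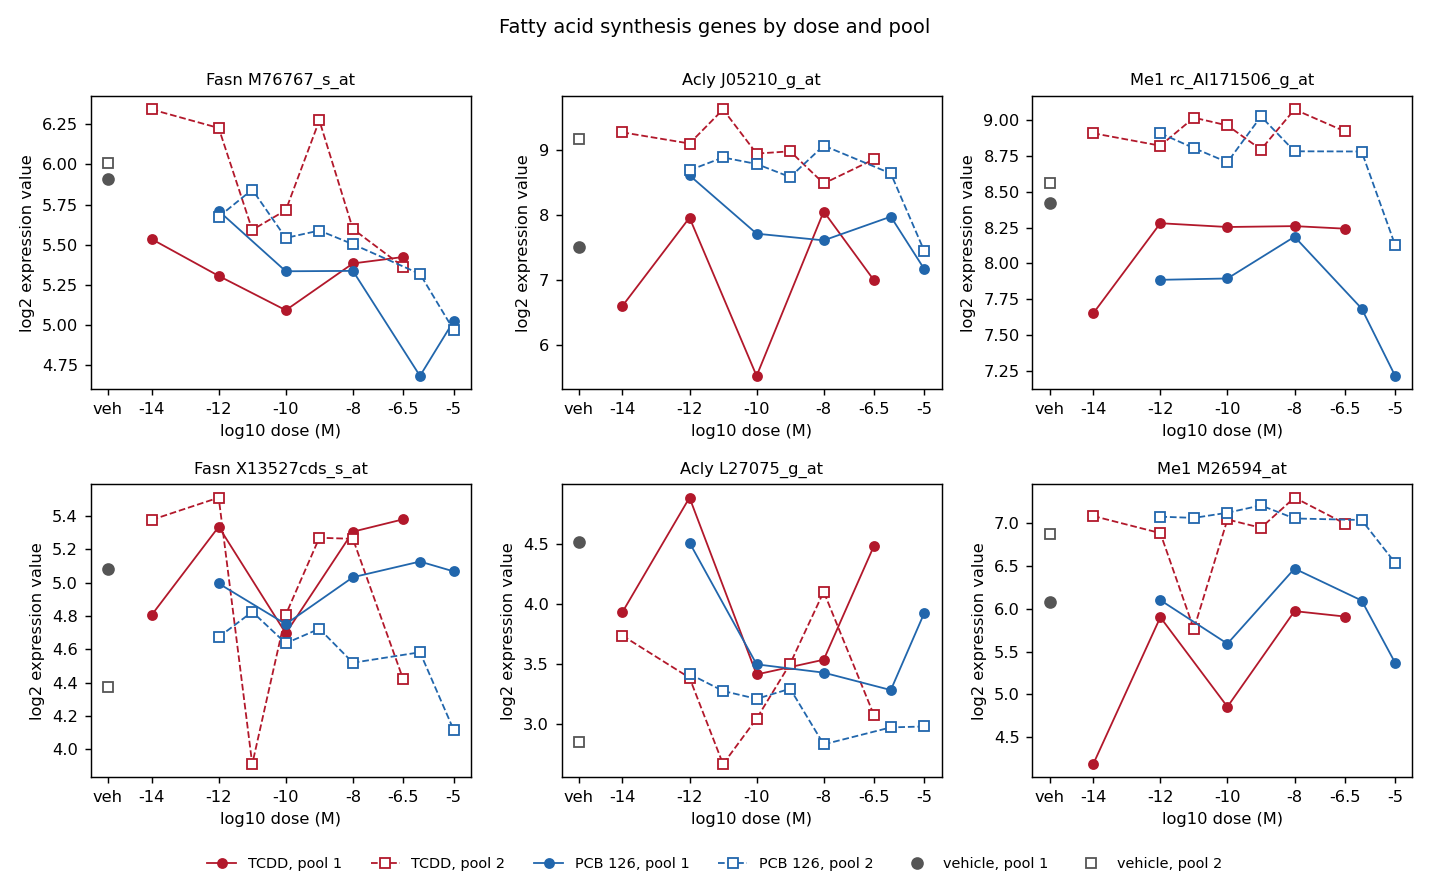
Log2 expression value (y axis) against log10 molar dose (x axis, with vehicle at the left) for 6 probe sets of Fasn, Acly and Me1. Red is TCDD, blue PCB 126 and grey vehicle, with filled circles for pool 1 and open squares for pool 2, and each point is 1 array. Fasn M76767_s_at reaches its lowest values at the 2 highest PCB 126 doses, and Acly J05210_g_at and Me1 rc_AI171506_g_at have their lowest pool 2 value at the top PCB 126 dose.

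Acly, ATP citrate lyase, supplies the cytosolic acetyl-CoA. At 316 nM TCDD its probe set J05210_g_at read 6.999 in pool 1 and 8.86 in pool 2, and at 10000 nM PCB 126 it read 7.17 and 7.45, against 7.51 and 9.18 with vehicle. The PCB 126 array of pool 2 was the lowest of that pool's 15 arrays, with a difference from vehicle of -1.73 log2, while in pool 1 the difference was -0.34 log2. The estimate was -1.04 ± 0.62 log2 (SE, 95% interval -2.37 to 0.29, adjusted p = 0.435) for PCB 126 and -0.42 ± 0.62 (adjusted p = 0.929) for TCDD. Without the PCB 126 10000 nM array of pool 2 the PCB 126 estimate was -0.45 log2 (adjusted p = 0.882). J05210_at, designed from the same sequence record and so not independent, had 6.48 and 8.35 with TCDD and 6.499 and 6.86 with PCB 126, against 7.03 and 8.57 with vehicle. Its PCB 126 slope of -0.15 ± 0.06 log2 per decade had an unadjusted p of 0.0192 and an adjusted p of 0.182. L27075_g_at was near the filter level and read 4.49 and 3.07 with TCDD and 3.93 and 2.98 with PCB 126, against 4.51 and 2.85 with vehicle, so its pools did not move the same way with PCB 126. None of the 3 Acly probe sets passed the test with either chemical.

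Me1, the cytosolic malic enzyme that yields NADPH, had the largest estimated difference between the chemicals at the top doses among the 9 members. On rc_AI171506_g_at the values were 8.24 in pool 1 and 8.92 in pool 2 with 316 nM TCDD and 7.22 and 8.13 with 10000 nM PCB 126, against 8.42 and 8.56 with vehicle. The PCB 126 array was the lowest of its pool in both pools, and TCDD lay below vehicle in pool 1 and above it in pool 2. PCB 126 minus vehicle was -0.82 ± 0.23 log2 (SE, 95% interval -1.32 to -0.32), with an unadjusted p of 0.00346 and a limma adjusted p of 0.0728. TCDD minus vehicle was 0.09 ± 0.23 (95% interval -0.41 to 0.59, adjusted p = 0.936). Without the PCB 126 10000 nM array of pool 2 the PCB 126 estimate was -0.89 log2 (adjusted p = 0.221). The PCB 126 slope of rc_AI171506_g_at was -0.08 ± 0.03 log2 per decade (adjusted p = 0.149) and its TCDD slope 0.04 ± 0.03 (adjusted p = 0.644). In pool 2 the value stayed between 8.71 and 9.02 from 1 pM to 1000 nM PCB 126, all above the vehicle value of 8.56. Only the top PCB 126 dose lay below vehicle there. In pool 1 it was 7.89, 7.90, 8.19 and 7.69 at 1 pM, 0.1 nM, 10 nM and 1000 nM, all below vehicle. The vehicle array was the highest of pool 1 on this probe set, so every TCDD array of that pool lay below it too.

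The other 3 tested Me1 probe sets lay below vehicle in both pools with 10000 nM PCB 126 and gave mixed signs with TCDD. rc_AI171506_at, which shares its sequence record with the probe set above, read 6.08 and 6.95 with 316 nM TCDD and 5.37 and 6.12 with 10000 nM PCB 126, against 5.56 and 6.98 with vehicle. M26594_at read 5.91 and 6.997 with TCDD and 5.37 and 6.54 with PCB 126, against 6.08 and 6.88 with vehicle. On rc_AI008020_at, TCDD gave 5.72 and 7.10 and PCB 126 gave 5.67 and 6.92, against 5.96 and 7.38 with vehicle. These 3 probe sets had PCB 126 minus vehicle estimates of -0.37 to -0.53 log2, all with a limma adjusted p of 0.499 to 0.606.

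Set against vehicle at the top doses, 0 of the 9 members were called in limma for either chemical. Both comparisons use the same 2 vehicle arrays, so their estimates are not independent. With TCDD 32 of 5197 probe sets (0.616%) were called and 1 member had an unadjusted p below 0.05 (9.76% of all), Fasn M76767_s_at with -0.56 ± 0.26 log2 (adjusted p = 0.493). With PCB 126 156 (3%) were called and 2 members had an unadjusted p below 0.05 (17.4% of all), Fasn M76767_s_at and Me1 rc_AI171506_g_at. Fasn M76767_s_at read 5.42 and 5.36 with TCDD and 5.02 and 4.97 with PCB 126, against 5.91 and 6.01 with vehicle. The PCB 126 difference of -0.96 ± 0.26 log2 (95% interval -1.51 to -0.41) was a 1.95-fold lower signal, with an adjusted p of 0.0561. It was called with the mean of the 2 highest doses in place of the top dose (-0.96, adjusted p = 0.0282) and was -0.76 (adjusted p = 0.350) without the 10000 nM array of pool 2.

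With PCB 126 at the top dose all 9 member estimates were below 0, beside 50.03% of all probe sets. At 10000 nM, 8 of the 9 members lay below the vehicle array in both pools, against 31.5% of all probe sets tested, the exception being Acly L27075_g_at. At 316 nM TCDD, 4 of 9 lay below vehicle in both pools (39.5% of all) and 1 of 9 above it in both (17.4% of all), Fasn X13527cds_s_at. The median estimate over the 9 members was -0.02 log2 for TCDD and -0.53 log2 for PCB 126, beside -0.07 and 0.00 over all probe sets. These 9 probe sets belong to 3 genes and are not independent. With 1 probe set per gene, the one with the highest mean, the median was -0.42 log2 for TCDD and -0.96 log2 for PCB 126. In pool 2 the PCB 126 top dose gave the lowest of 15 arrays for 5 of the 9 members (20.5% of all), and in pool 1 the lowest of 11 arrays for 1 of 9 (8.52% of all). The pool 2 array is one of those that stood apart. In pool 1 the members' differences from vehicle at 10000 nM ran from -1.20 to -0.01 log2. They rest on 1 PCB 126 array and 1 vehicle array, and the share of all probe sets below vehicle in pool 1 alone was not counted. With each array centred on its median, PCB 126 lay below vehicle in both pools for 8 of 9 members and 39.3% of all probe sets. Fasn X13527cds_s_at then turned above vehicle in pool 1 (0.034 log2) and Acly L27075_g_at below it in pool 2.

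**Figure D3:**
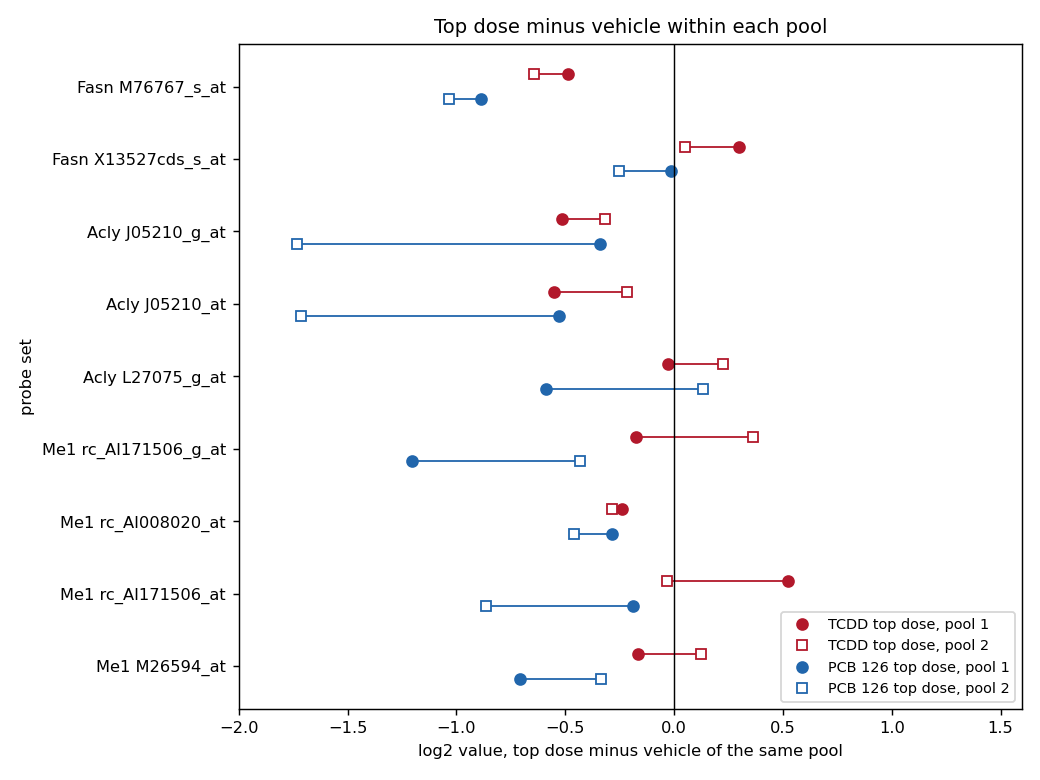
Log2 value at the top dose minus the vehicle array of the same pool (x axis) for the 9 tested probe sets (rows), TCDD 316 nM in red above PCB 126 10000 nM in blue. Circles are pool 1, squares pool 2, and the line joins the pools. PCB 126 lies left of 0 in both pools for 8 of 9 probe sets, and TCDD for 4 of 9.

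Contrasted directly at their top doses, TCDD and PCB 126 gave no call on any member. Over all 5197 probe sets limma called 0 (0%), with 288 (5.54%) at an unadjusted p below 0.05, and of the 9 members 2 had such a p, both on Me1. Me1 rc_AI171506_g_at was higher with 316 nM TCDD than with 10000 nM PCB 126 by 1.03 log2 in pool 1 and 0.79 log2 in pool 2. The estimate was 0.91 ± 0.23 log2 (95% interval 0.41 to 1.41), a 1.88-fold difference, with an unadjusted p of 0.00157 and an adjusted p of 0.542. Me1 rc_AI171506_at had 0.77 ± 0.35 log2 (95% interval 0.02 to 1.52, adjusted p = 0.746). For Fasn M76767_s_at the difference was 0.40 log2 in pool 1 and 0.39 log2 in pool 2 (TCDD higher), with an interval of -0.15 to 0.94 (adjusted p = 0.746). For Acly J05210_g_at it was -0.17 log2 in pool 1 and 1.41 log2 in pool 2, with an interval of -0.71 to 1.95, so the pools disagreed in sign.

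TCDD lay above PCB 126 in both pools for 7 of the 9 members, against 23.1% of all probe sets, and below it in both pools for 0 of 9 (35.7% of all). The exceptions were the Acly pair J05210_g_at and J05210_at in pool 1. The median difference over the members was 0.50 log2, beside -0.05 over all probe sets. With 1 probe set for each of the 3 genes it was 0.62 log2. With each array centred on its median, the median over all probe sets was 0.07, and TCDD lay above PCB 126 in both pools for 8 of the 9 members and for 40.4% of all probe sets. The sign that turned was that of Acly J05210_at in pool 1, from a difference near 0 (-0.021, and 0.019 with centred arrays). Without the 3 arrays that stood apart, which leaves 1 PCB 126 array at the top dose, the difference of Me1 rc_AI171506_g_at was 0.98 log2 (adjusted p = 0.673). Without them that of Fasn M76767_s_at was 0.21 log2, that of Acly J05210_g_at 0.15 and that of Me1 rc_AI171506_at 0.38 (adjusted p = 0.9998 for all 3).

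At matched doses the chemicals were compared at 1 pM, 0.1 nM and 10 nM, for 9 members at 3 doses. No member was called at any of them, where limma called 0 (0%), 2 (0.0385%) and 0 (0%) of 5197 probe sets and 1.94%, 14.5% and 1.98% had an unadjusted p below 0.05. At 10 nM Fasn M76767_s_at read 5.38 and 5.60 with TCDD and 5.34 and 5.50 with PCB 126, a difference of 0.07 log2 with an interval of -0.48 to 0.62. Me1 rc_AI171506_g_at read 8.26 and 9.07 with TCDD and 8.19 and 8.78 with PCB 126, a difference of 0.18 with an interval of -0.32 to 0.68. Acly J05210_g_at read 8.06 and 8.49 with TCDD and 7.61 and 9.07 with PCB 126, a difference of -0.07 with an interval of -1.40 to 1.26. These intervals were not adjusted for the number of tests and hold for the named probe sets only, so they set no limit for the other members. The largest estimate at 10 nM was that of Acly L27075_g_at, near the filter level, with 0.69 log2 (interval -0.19 to 1.57). Fasn X13527cds_s_at had 0.51 log2 (interval -0.16 to 1.17). Of the 9 member estimates at 10 nM, 6 were above 0 and 3 below. The 1 member with an unadjusted p below 0.05 was Me1 rc_AI008020_at at 0.1 nM, with -0.65 ± 0.30 log2 (adjusted p = 0.338). Its TCDD value of pool 1 there, 5.02, came from an array that stood apart.

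The slopes use the top-dose arrays too and so are not independent of the contrasts above. All 9 members had a negative slope with PCB 126, beside 43.7% of all probe sets, with a median of -0.08 log2 per decade beside 0.01 over all. With TCDD 5 of 9 were negative (63.4% of all), with a median of -0.01. The TCDD slope minus the PCB 126 slope was positive for all 9, beside 40.4% of all probe sets, and limma called 0 (0%) of 5197, with 342 (6.58%) at an unadjusted p below 0.05. Among the members 2 had such a p, Me1 rc_AI171506_g_at with 0.11 ± 0.04 log2 per decade (adjusted p = 0.577) and Me1 M26594_at with 0.16 ± 0.07 (adjusted p = 0.577). Without the top dose of each chemical the Fasn M76767_s_at slope for PCB 126 was -0.11 log2 per decade (limma adjusted p = 0.220). Slopes of Acly and Me1 were nearer 0 in that fit than with the top dose. They were -0.04 against -0.12 for Acly J05210_g_at and -0.09 against -0.15 for Acly J05210_at. For Me1 they were -0.02 against -0.08 on rc_AI171506_g_at and -0.04 against -0.10 on rc_AI171506_at.

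**Figure D4:**
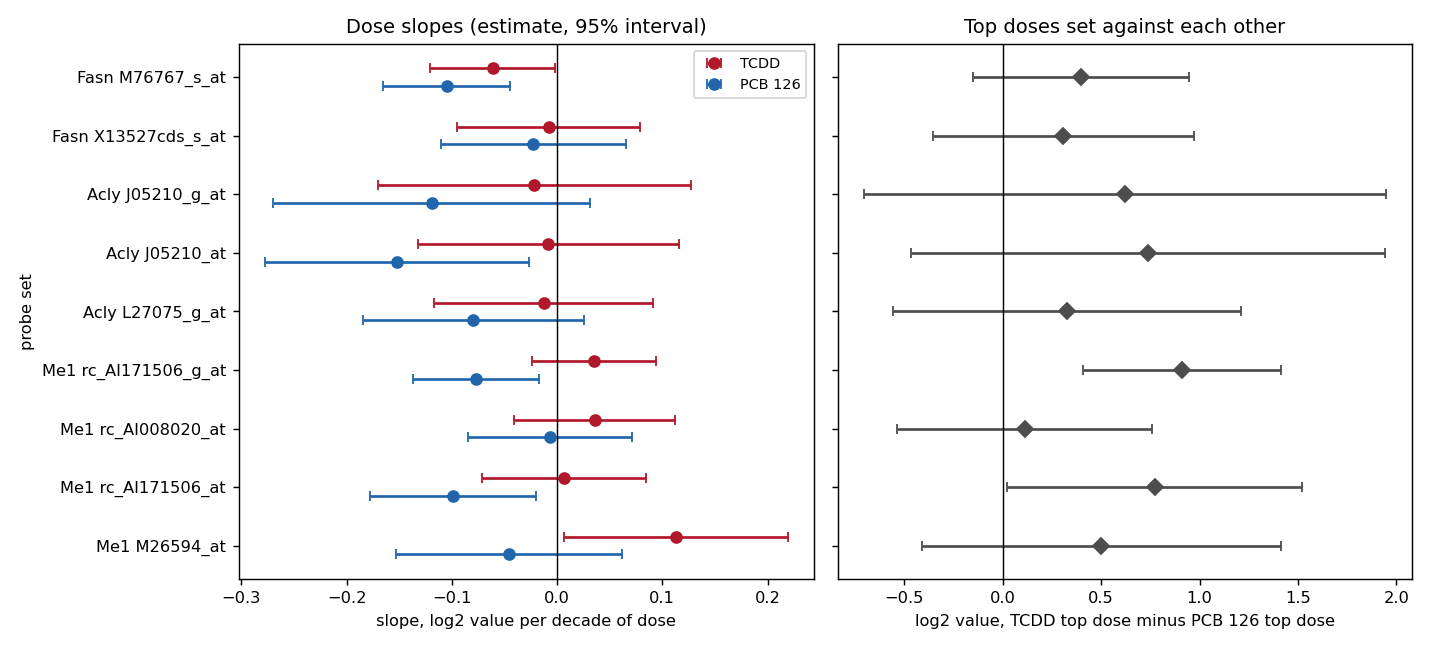
Left, fitted slope in log2 value per decade of dose (x axis) with its 95% interval for the 9 tested probe sets (rows), TCDD in red above PCB 126 in blue. Right, the log2 difference of TCDD 316 nM minus PCB 126 10000 nM with its 95% interval. All PCB 126 slopes and no top-dose difference lie left of 0, and the Me1 rc_AI171506_g_at interval of the right panel runs from 0.41 to 1.41.

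Probe sets of the same gene tracked each other to different degrees. After each pool's mean was subtracted, the Acly pair J05210_g_at and J05210_at had r = 0.93 over the 26 arrays, while J05210_g_at and L27075_g_at had r = 0.11. The Fasn pair had r = 0.53, made of 0.71 in pool 2 and 0.02 in pool 1. The Me1 pair of 1 sequence record had r = 0.52, made of 0.92 in pool 2 and 0.16 in pool 1. Between genes, Fasn M76767_s_at and Acly J05210_g_at had r = 0.38. These correlations describe arrays that share 2 pools and common quality differences. Among 3033 other genes the most alike in pattern, by the same r, were Slc26a1, Egfr and Afdn for Fasn (0.69 each). They were Pafah1b1, Acaa2 and Atp5pd for Acly (0.89, 0.88 and 0.87) and Abcb1b, Pip4k2c and Psmd10 for Me1 (0.67, 0.64 and 0.64).

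Among genes that feed the pathway 3 passed in a dose trend, all of them lower. Carbon and NADPH supply had 9 of 14 listed genes measured, of which 2 fell with PCB 126 dose (2.69% of all probe sets were called lower) and 0 rose. They were the pyruvate dehydrogenase subunits Pdhb (-0.14 ± 0.04 log2 per decade, adjusted p = 0.0311) and Dlat (-0.10 ± 0.03, adjusted p = 0.0492), with -0.05 ± 0.04 and -0.07 ± 0.03 for TCDD (adjusted p = 0.618 and 0.230). The list's median slope with PCB 126 was -0.02, beside 0.01 over all. Glycolytic feed had 9 of 17 measured, and 1 fell with TCDD dose, the glucose transporter Slc2a2 (-0.13 ± 0.04, adjusted p = 0.0360). In that trend 3.1% of all probe sets were called in either direction. Slc2a2 had -0.12 ± 0.04 with PCB 126 and just missed the threshold (adjusted p = 0.05003). Pgk1, phosphoglycerate kinase, had -0.17 ± 0.05 with TCDD (adjusted p = 0.0599).

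In the steps after palmitate no gene passed in any of the trend or top-dose comparisons. Desaturation and elongation had 7 of 14 genes measured, with 3 and 2 at an unadjusted p below 0.05 in limma for the TCDD and PCB 126 trends. Of all probe sets 14.5% and 16.9% had such a p. The stearoyl-CoA desaturase Scd had -0.10 ± 0.07 log2 per decade with TCDD and -0.15 ± 0.07 with PCB 126 (adjusted p = 0.528 and 0.258). The fatty acid elongase Elovl5 had -0.09 ± 0.04 and -0.08 ± 0.04 (adjusted p = 0.327 and 0.329). The acyl-CoA thioesterase Acot2 had -0.05 ± 0.02 with TCDD and -0.07 ± 0.02 with PCB 126 (adjusted p = 0.297 and 0.0782). Acyl activation and glycerolipid assembly had 10 of 19 measured, with 1 and 4 at an unadjusted p below 0.05 (14.5% and 16.9% of all). The hepatic lipase gene Lipc had -0.15 ± 0.05 log2 per decade with TCDD and -0.16 ± 0.05 with PCB 126 (adjusted p = 0.109 and 0.0677). The acyl-CoA synthetase Acsl4 had -0.07 ± 0.05 and -0.15 ± 0.05 (adjusted p = 0.525 and 0.0873). The acyltransferase Gpam, which starts glycerolipid assembly, had -0.00 ± 0.04 and -0.08 ± 0.04 (adjusted p = 0.981 and 0.279).

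Of the regulators of lipogenesis 21 of 38 were measured and none passed in limma, with 2 at an unadjusted p below 0.05 in each trend. The share of all probe sets with such a p was 14.5% for TCDD and 16.9% for PCB 126. Srebf1, which encodes SREBP-1, had -0.07 ± 0.03 log2 per decade with TCDD and 0.00 ± 0.03 with PCB 126 (adjusted p = 0.277 and 0.986). Nr1h2, which encodes the oxysterol receptor LXR beta, had 0.16 ± 0.07 and 0.02 ± 0.07 (adjusted p = 0.301 and 0.870). Prkab1, a regulatory subunit of AMP-activated kinase, had -0.02 ± 0.03 with TCDD and -0.06 ± 0.03 with PCB 126 (adjusted p = 0.799 and 0.241). The list's median slopes were -0.01 with TCDD and 0.01 with PCB 126, the same to 2 decimals as those over all probe sets.

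Markers of other liver and fat cells were read beside these genes. The summed log2 level of 9 stellate cell and fibroblast markers was 44.7 to 45.7 on the TCDD top-dose arrays and 40.2 to 44.9 on the PCB 126 top-dose arrays, against 47.1 to 48.2 with vehicle. Of these 9, 6 averaged above the filter level. In the PCB 126 trend 2 of the 7 tested fell, Tagln and Lox (2.69% of all probe sets were called lower). The other 5 did not pass, and the median slope of the 7 was 0.00 log2 per decade, beside 0.01 over all probe sets. Tagln, an actin-binding protein of contractile cells, was also lower at the top PCB 126 dose than with vehicle (-3.37 ± 0.53 log2, adjusted p = 0.00266), and the collagen cross-linking enzyme Lox had -0.24 ± 0.06 log2 per decade with PCB 126 (adjusted p = 0.0309). The intermediate filament gene Vim averaged 6.45 at that dose, against 6.34 with vehicle, and the smooth muscle actin gene Acta2 5.64, against 5.77. The part of these cells in the PCB 126 values of Fasn, Acly and Me1 was not tested. Adipocytes also make fatty acids, and the sum of 7 adipocyte markers was 25.4 to 26.7 with TCDD and 26.3 to 27.5 with PCB 126, against 24.9 to 25.4 with vehicle, with Plin1, Cfd, Lipe and Pck1 averaging below the filter level. The 7 hepatocyte markers summed to 79.1 to 79.2 with TCDD and 79.1 to 79.8 with PCB 126, against 79.2 to 79.3 with vehicle. The 7 macrophage markers, of which 4 averaged above the filter level, summed to 30.1 to 31.0 and 31.5 to 31.8, against 30.6 to 32.8. Of the 4 tested, 1 was lower in both dose trends, where 3.1% (TCDD) and 4.25% (PCB 126) of all probe sets were called. It was Lyz2, the lysozyme of macrophages, with -0.19 ± 0.04 log2 per decade with TCDD and -0.17 ± 0.04 with PCB 126 (adjusted p = 0.00915 and 0.0222). The other 3 did not pass. At the top PCB 126 dose Cd14 averaged 4.90, Ptprc 5.25 and Cd74 3.94, against 4.56, 4.92 and 3.70 with vehicle. The median slope of the 4 was -0.01 with TCDD and 0.04 with PCB 126, beside -0.01 and 0.01 over all probe sets. The part of these cells in the members' values was not tested. The 5 endothelial markers, of which 1 averaged above the filter level, summed to 14.5 to 16.2 and 16.2 to 16.3, against 14.8 to 16.8. The 3 cholangiocyte markers summed to 11.6 to 13.9 with TCDD and 11.3 to 13.3 with PCB 126, against 12.3 to 15.5 with vehicle. Of these 3, 2 averaged above the filter level.

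Extremes of the members also lay on the other arrays that stood apart. The TCDD 0.1 nM array of pool 1 gave the lowest of 11 values for 5 of the 9 tested members, against 19.9% of all probe sets, among them Acly J05210_g_at at 5.53 and Me1 rc_AI008020_at at 5.02. The TCDD 10 pM array of pool 2 gave the lowest of 15 values for 3 of 9 (14.5% of all), namely Fasn X13527cds_s_at at 3.91, Acly L27075_g_at at 2.67 and Me1 M26594_at at 5.76. The same array held the highest Acly J05210_g_at value, 9.63. The part of array quality in these values was not tested.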

How the data were processed

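Expression was measured on 26 short-oligonucleotide arrays of rat hepatocyte RNA. The authors' deposited values are log2 expression values, from -1.43 to 15.01. GCRMA 2.8.0 and RMA are named per the submitters' processing notes, and which of them made the values is not stated there. Either method models background, which sets dim values more than bright ones. Groups come from the labels. Of 8740 probe sets other than 59 controls, 5197 were kept whose second-highest value was above 3.71, the median of all values of these 8740. Genes were taken from the platform annotation: 7006 probe sets name 1 gene, 308 several and 1426 none listed.

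Tests on the deposited log2 values were made with limma (3.58.1, under R 4.3.3), using moderated variances with an intensity trend and robust estimation. P values were adjusted by Benjamini-Hochberg over the 5197, with a threshold of 0.05. For dose trends the model held pool, chemical and, for each chemical separately, a slope per log10 of dose (20 residual degrees of freedom). For doses compared one by one it held pool and 15 groups (10 residual degrees of freedom), so a group of 1 array borrows its spread from the others. Same-numbered arrays come from the cells of the same animals, per the series' design text, so pool is a block. Same-pool deviations from the means of 11 groups correlated at 0.461 to 0.892. The number of arrays limits the precision. Promoters came from the RefSeq table of GRCr8.

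Named genes were all members, up to 4 genes per neighbouring list by smallest trend p, Cyp1a1, and the 3 most alike genes per member. Alb, Tagln, Lox, Vim, Acta2, Lyz2, Cd14, Ptprc, Cd74 and the adipocyte markers were named after their values were seen. The members and lists were chosen with earlier results of these data known. The fits were checked on simulated data. Alternatives were array centring, the filter, the variance model, the pool term, arrays or doses left out, each pool alone, the dose scale, the baseline and the mean per gene.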

Additional observations from a re-analysis of the deposited data

How the results depend on the processing

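Called members changed as follows. The PCB 126 trend had 1 called member, Fasn M76767_s_at, and 0 with no filter on dim probe sets (adjusted p = 0.0625), without the highest dose, with pool 1 alone, with pool 2 alone, with the mean of each gene's probe sets, and without the 3 arrays that stood apart, and 2 with the PCB 126 arrays alone (Acly J05210_at, -0.16, adjusted p = 0.0204). The fit with no replicate block also gave 0, with a Fasn slope of -0.11 (adjusted p = 0.187), and changed no other call on a member. Over fits without 1 array each the count was 0 to 1. The call held in 19 of 26 such fits and was lost without the PCB 126 array of pool 1 at 1 pM, 0.1 nM or 1000 nM or of pool 2 at 10 pM, 1 nM, 1000 nM or 10000 nM (adjusted p from 0.0510 to 0.197), and the slope ran from -0.12 to -0.09. The PCB 126 top dose against vehicle had 0 called members, and 1 (Fasn M76767_s_at) with the stricter filter, with limma without trend and robust, and with the mean of the 2 highest doses. It had 2 with vehicle and the lowest dose as the baseline (Fasn M76767_s_at, -0.83, adjusted p = 0.0383, and Me1 rc_AI171506_g_at, -0.77, adjusted p = 0.0351), and 0 to 1 over fits without 1 array. TCDD against PCB 126 at 0.1 nM had 0 to 2 over such fits. Signs turned for the TCDD slope of Acly J05210_g_at (-0.02, 0.049 with pool 1 alone, -0.092 to 0.010 without 1 array), for the slope difference of Fasn M76767_s_at (0.04, -0.012 with pool 2 alone) and for Me1 rc_AI171506_g_at at the top TCDD dose (0.09, -0.26 to 0.44 without 1 array), none of them called. The causes were not tested. Over all probe sets, leaving out 1 array gave 81 to 257 calls for the TCDD trend (without TCDD 316 nM of pool 1 and of pool 2), 53 to 371 for the PCB 126 trend (without PCB 126 1 pM and 1000 nM of pool 1), 0 to 114 for the TCDD top dose (without that dose's array of pool 1 and of pool 2), 73 to 249 for the PCB 126 top dose (without that dose's array of pool 2 and TCDD 0.1 nM of pool 2), 0 to 5 between the top doses and 0 to 885 at 0.1 nM (without TCDD 0.1 nM of pool 1 and of pool 2). In the order TCDD trend, PCB 126 trend, TCDD top dose, PCB 126 top dose, where calls numbered 161, 221, 32 and 156, the fit without the block gave 39, 56, 16 and 36. The TCDD trend had 103 calls with centred arrays, 85 with gene means, 46 with its own arrays, 0 and 12 with pool 1 and pool 2 alone, 298 with vehicle placed below the lowest dose and 249 without the 3 arrays, and the PCB 126 trend had 118 with gene means, 367 with its own arrays, 0 and 110 with each pool alone, 339 with vehicle placed below and 106 without the highest dose. The TCDD top dose had 117 with the mean of the 2 highest doses, 67 with the lowest dose in the baseline and 15 with gene means, and the PCB 126 top dose 358 with that baseline and 102 without the 3 arrays, which gave 6 between the top doses. At 0.1 nM there were 2, and 0 to 7 over these settings, and at 1 pM 0, and 2 with no filter. The 2 arrays per group and 2 pools limit what could be told apart, and for Acaca, whose probe set stayed below the filter, nothing could be read.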
